A study of Mus musculus with 36 samples.

Results

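A set of 33 genes of sugar breakdown and of the response to low oxygen was followed through lung alveolar macrophages (AΦ) and monocytes of mice that breathed filtered air (FA) or concentrated fine particles (PM2.5). The genes were chosen by name, as the glucose transporters, the enzymes from hexokinase to pyruvate kinase, the lactate and pyruvate branch, and HIF-1 with its hydroxylases and targets. All 33 were found among the 27562 genes of the table, and each was read in all 36 libraries.

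Glycolysis splits glucose into pyruvate in the cytosol, and its isozymes let a cell set where the flow is limited, chiefly at glucose entry, hexokinase and phosphofructokinase. Hypoxia-inducible factor 1 (HIF-1) is a transcription factor whose alpha subunit is hydroxylated and destroyed when oxygen is present, and which switches on glycolytic genes, Vegfa and others when it is not. Resident AΦ live in the airspace, where oxygen is plentiful and glucose is scarce, and they are known for lipid handling and mitochondrial respiration, while monocytes recruited from blood are known to use glycolysis.

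The study asked whether long particle exposure acts differently on resident and on marrow-derived AΦ. Male C57BL/6J (CD45.2) hosts, young adults at transplantation, were lethally irradiated with the chest shielded, given busulfan, and transplanted with marrow of CD45.1 B6.SJL-Ptprca Pepcb/BoyJ donors, a treatment that all the mice share, the FA controls included. They then breathed FA or PM2.5 for 4 or 32 weeks, and AΦ (CD64+, CD11c high, CD11b low) and monocytes (CD64 low, CD11b high, Ly6G-, MHC II-) were sorted from lung. Each of the 12 groups held 3 libraries, numbered 0, 1 and 2, which the labels call biological replicates. Tissue-resident AΦ (TR-AΦ, CD45.2) were taken at both times and bone marrow-derived AΦ (BM-AΦ, CD45.1) at 32 weeks, each from FA and from PM2.5 mice. Monocytes at 4 weeks were CD45.2, and the monocytes numbered 1 and 2 at 32 weeks were taken to be CD45.1 and CD45.2, from the key given for the AΦ. CD45.2 monocytes are those that the host kept, a minority in these chimeras. The 4-week and the 32-week mice differ in age and in exposure run as well as in length of exposure, so these cannot be told apart.

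Values are FPKM, the fragments of a gene per kilobase of transcript, scaled to the mapped fragments of the library. They are per length, so that levels can be set beside each other between genes. No read counts are given beside them, so the depth of each library is unknown. Differences are in log2(FPKM + 1), tested with limma across all genes of a mean of at least 1 FPKM, and are called at an adjusted p below 0.05. On this scale the change of genes of a few FPKM is understated. In bulk libraries, fewer cells of a type and less RNA per cell cannot be told apart.

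Before the members, the libraries were checked against their labels. The summed FPKM of 13 AΦ markers was 6790 to 14200 in AΦ and 291 to 1670 in monocytes, and that of the monocyte markers was 95 to 574 in AΦ and 1510 to 4610 in monocytes, with no overlap in either. Several monocyte libraries stood apart. The 4-week PM2.5 library numbered 2 had a neutrophil marker sum of 1010 and the 4-week FA library numbered 2 one of 329, against at most 73.5 in the other monocyte libraries. The same pair had T and NK cell marker sums of 91.1 and 77.3, against at most 14.4. The CD45.2 PM2.5 library numbered 1 at 32 weeks had the AΦ marker sum of 1670. The 32-week FA libraries numbered 2 stood apart in the members themselves, with the highest Slc2a1, Slc16a3 and Vegfa of their cells. Red-cell marker sums were 17.7 to 85.8 in the 32-week libraries numbered 2 and at most 19.5 in the other 32-week libraries. At 4 weeks they were 157 and 129 in the PM2.5 monocytes numbered 0 and 1, 38.2 and 63.2 in the PM2.5 TR-AΦ of the same numbers, and at most 47.8 in the other libraries.

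A known HIF-binding core reads ACGTG or GCGTG, and windows of 250 bases before the transcription start were searched for either on both strands. RefSeq (GRCm38.p6) gave windows for 32 of the 33 members, and 29 of the 32, or 90.6%, held at least 1 match, against 41.5% of 27025 genes. Only 8015 of the 13307 genes tested in the model of both cell types had a window; of these 62.7% held a match. A match is only the presence of these letters. Windows free of annotated exons are shown for 4 members: Slc2a6, called in the cell type, time and interaction comparisons, Hk2 and Slc16a1, called between the times in TR-AΦ, and Ldha, without overlap between the origins. They are a choice made after the values were seen, among other members with such windows, and a second Ldha window with 1 match is not shown. Capitals mark the matched stretches, and each window is written 5′ to 3′ in the direction of its gene.
Slc2a6, chr2:27027999-27028248, minus strand: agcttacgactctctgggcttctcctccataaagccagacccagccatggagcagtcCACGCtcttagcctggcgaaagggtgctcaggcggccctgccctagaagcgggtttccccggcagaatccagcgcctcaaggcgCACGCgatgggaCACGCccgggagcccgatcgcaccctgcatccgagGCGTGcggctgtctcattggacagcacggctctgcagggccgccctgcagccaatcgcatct
Hk2, chr6:82774455-82774704, minus strand: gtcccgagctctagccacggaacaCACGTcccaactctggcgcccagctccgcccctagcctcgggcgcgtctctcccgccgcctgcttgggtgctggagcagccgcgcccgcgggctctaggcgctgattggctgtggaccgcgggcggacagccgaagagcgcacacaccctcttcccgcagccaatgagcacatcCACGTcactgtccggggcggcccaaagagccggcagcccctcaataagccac
Ldha, chr7:46845554-46845803, plus strand: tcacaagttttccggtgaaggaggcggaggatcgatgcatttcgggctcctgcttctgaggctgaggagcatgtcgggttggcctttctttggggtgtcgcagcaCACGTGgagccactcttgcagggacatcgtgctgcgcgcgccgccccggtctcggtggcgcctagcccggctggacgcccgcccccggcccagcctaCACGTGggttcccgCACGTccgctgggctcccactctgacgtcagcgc
Slc16a1, chr3:104638414-104638663, plus strand: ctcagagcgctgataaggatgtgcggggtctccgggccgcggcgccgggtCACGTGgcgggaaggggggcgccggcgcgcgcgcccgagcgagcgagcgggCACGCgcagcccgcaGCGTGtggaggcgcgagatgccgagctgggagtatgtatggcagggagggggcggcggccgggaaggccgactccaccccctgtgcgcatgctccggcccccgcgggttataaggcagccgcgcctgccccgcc
The Slc2a6 window held 4 stretches, the Ldha and the Slc16a1 windows 3 each and the Hk2 window 2. The lactate exporter Slc16a3 held 2 as well, at 27 and 14 bases before its start.

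**Figure D1:**
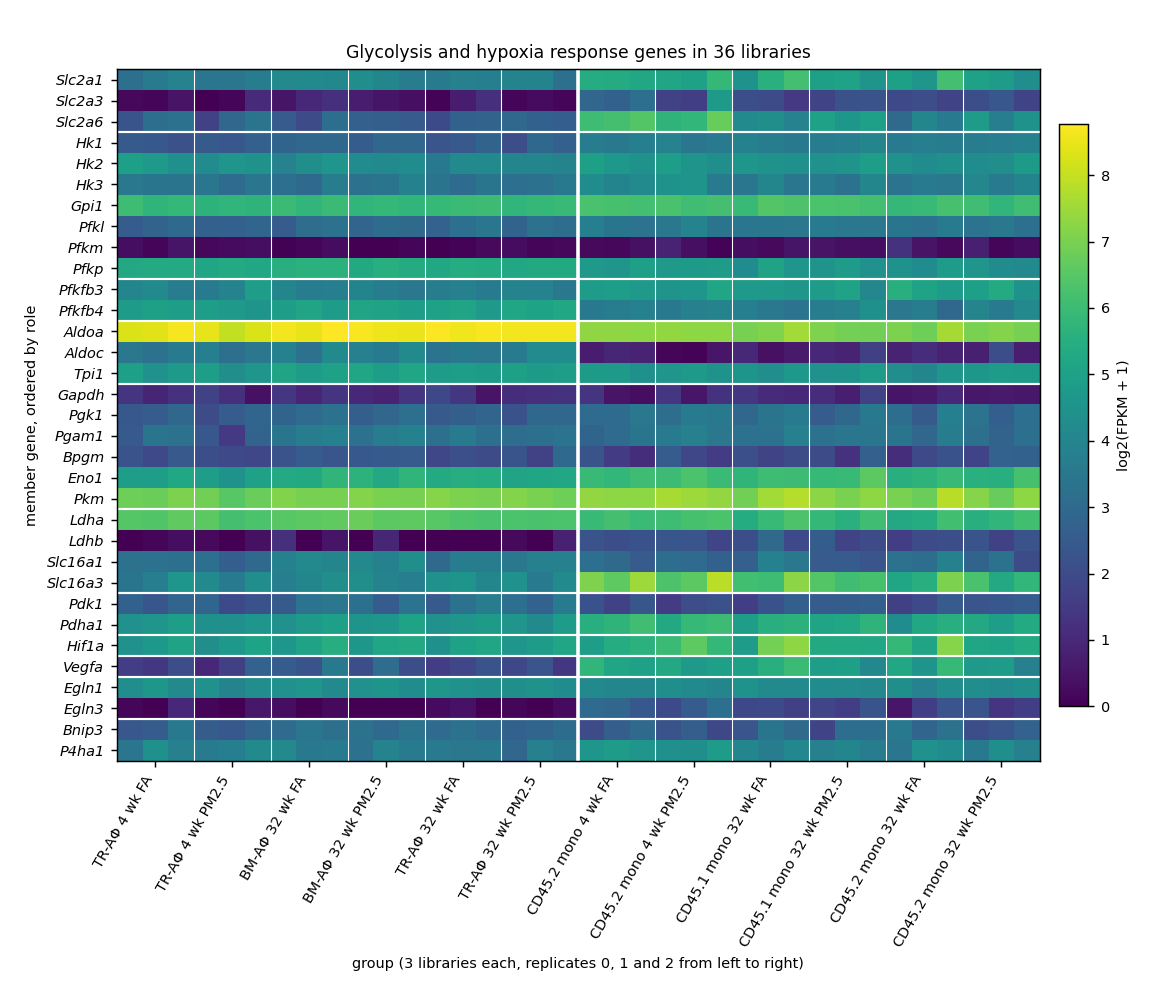
Each row is 1 of the 33 members and each column 1 of the 36 libraries, ordered by group, with colour for log2(FPKM + 1). Aldoa has the highest listed level in AΦ, and Slc2a6, Slc16a3, Vegfa and Egln3 are higher in monocytes than in AΦ.

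The members spanned a wide range of levels. Aldoa, the muscle-type aldolase that splits fructose-1,6-bisphosphate, had the highest listed level of the members in AΦ, with 250 to 438 FPKM. Next came the pyruvate kinase Pkm with 88.9 to 144 and the lactate dehydrogenase Ldha with 71.5 to 108. Gapdh has no place in this order, since its values cannot be read as its expression, as set out below. Values of Pkm, Eno1, Pgk1 and Pgam1 may be affected by reads shared with other genes. The order therefore holds for listed values alone. The ranges of Pkm and Ldha overlapped, so their order is not separated. In monocytes Pkm (106 to 228 FPKM) and Aldoa (115 to 192 FPKM) overlapped. Pfkm, the muscle phosphofructokinase, was at most 1.46 FPKM in every library and its mean was below 1 FPKM, so it was not tested anywhere.

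The comparison of cell types asked how the members differed between AΦ and monocytes of the same CD45 type and time, with FA and PM2.5 libraries averaged. At 4 weeks 23 of 32 tested members were called, 4 higher and 19 lower in TR-AΦ, where 48.2% of all genes were called, 22.6% higher and 25.5% lower. At 32 weeks 21 of 32 were called between CD45.1 cells (8 higher and 13 lower in BM-AΦ), against 50.9% of all genes (27.1% higher and 23.8% lower), and 22 of 32 between CD45.2 cells (9 higher and 13 lower in TR-AΦ), against 47.3% (23.6% higher and 23.7% lower). The libraries of the cell types did not overlap for 19, 17 and 16 of the 32, against 29.8%, 30.8% and 26.9% of all genes. Members lower in AΦ were 11 of 32 in all 3 comparisons (34.4%, against 16.8% of all genes): the 3 glucose transporters Slc2a1, Slc2a3 and Slc2a6, with Hk1, Pfkfb3, Eno1, Ldhb, Slc16a3, Pdha1, Vegfa and Egln3. Members higher in AΦ in all 3 were Aldoa, Aldoc, Pfkp and Pfkfb4 (12.5%, against 15.7%). The median difference of the members was -0.733, -0.253 and -0.328, beside -0.019, 0.028 and 0 for all genes. With the libraries rescaled to an equal FPKM sum, which put the median difference of all genes at 0.207, 0.359 and 0.144, the members split 8 higher and 12 lower at 4 weeks, 12 and 9 between CD45.1 cells, and 10 and 9 between CD45.2 cells. That scaling lost 7, 4 and 4 calls, which are named beside each gene, and added 4, 4 and 1, all higher in AΦ: Tpi1, Ldha, Pdk1 and Egln1 at 4 weeks, Pgam1, Bpgm, Egln1 and Bnip3 between CD45.1 cells, and Egln1 between CD45.2 cells. Leaving out 1 library at a time lost no call at 4 weeks or between CD45.1 cells. Between CD45.2 cells it lost the calls of Gapdh (without any of 10 libraries), Slc16a1 (7), P4ha1 (6), Pdha1 (5), Hk2 (without TR-AΦ FA number 0) and Tpi1 (without monocyte FA number 1).

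**Figure D2:**
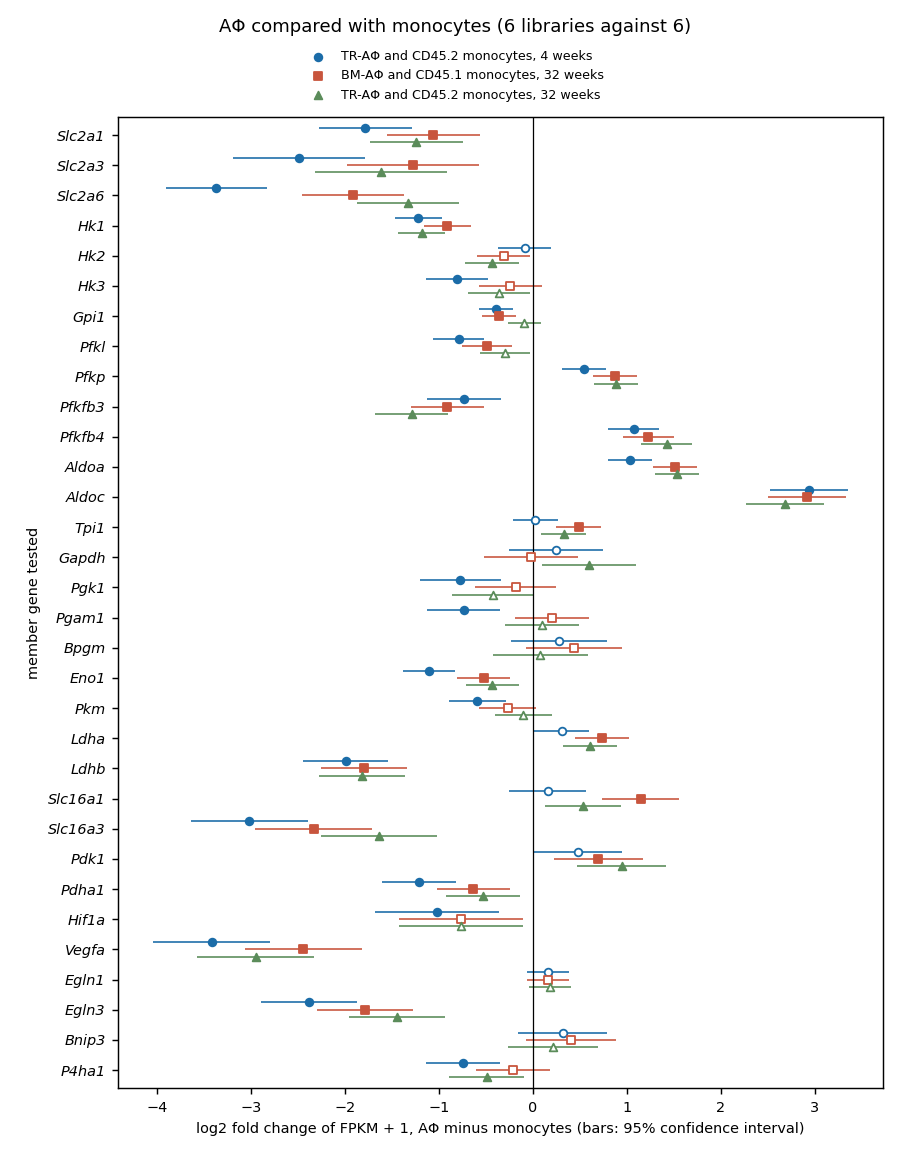
Log2 difference of AΦ minus monocytes for each tested member, with its 95% interval, in the 3 comparisons; filled points have an adjusted p below 0.05. Slc2a6, Slc16a3, Vegfa and Egln3 lie far to the left and Aldoc far to the right in all 3.

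The 3 glucose transporters were lower in AΦ in each comparison. Between CD45.1 cells the calls of Slc2a1 and Slc2a3 did not hold in all 22 alternatives, while that of Slc2a6 did. At 4 weeks and between CD45.2 cells all 3 held. Slc2a1 encodes GLUT1, the transporter of basal glucose uptake in most cells. It was 8.52 to 14 FPKM (median 10.7) in 4-week TR-AΦ and 31.6 to 56.4 (median 38.7) in the monocytes of that time. At 32 weeks it was 11.7 to 18.6 (median 16.4) in BM-AΦ and 8.47 to 14.6 (median 13) in TR-AΦ, below every monocyte library of the same type, which ran from 21.5 to 69.5 and from 18.8 to 70.7. The groups did not overlap, and the differences were -1.79, -1.06 and -1.24 (limma adjusted p = 5.53e-07, 0.000587 and 0.000105).

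Slc2a3, GLUT3, a transporter of high glucose affinity, was at or below 1.27 FPKM in every AΦ library and listed at 0 in 1 of them. In monocytes it was 2.06 to 26.6 (median 6.00) at 4 weeks, and 1.78 to 3.78 and 2.46 to 4.20 at 32 weeks. The value of 26.6 belonged to the PM2.5 library with the highest neutrophil marker sum, and the next highest, 8.16, to the FA library with the second highest. Without the 4-week monocyte libraries numbered 2 the 4-week difference was -1.90, beside -2.49 with them (limma adjusted p = 7.04e-07).

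Slc2a6, at chr2:27021363-27027998, encodes GLUT6, a transporter found on lysosomal membranes. It was 2.23, 3.84, 6.49, 8.06, 8.73 and 9.46 FPKM in the 4-week TR-AΦ libraries, and 51.0, 54.8, 65.7, 71.8, 85.4 and 107 in the monocytes. The lowest monocyte library was thus several-fold above the highest AΦ library. Means differed 11.2-fold at 4 weeks, and the log2 difference was -3.37 ± 0.26 (SE, limma adjusted p = 2.69e-11). At 32 weeks BM-AΦ had 3.11 to 7.99 against 14 to 31.8 in CD45.1 monocytes, and TR-AΦ 2.93 to 6.67 against 7.13 to 27.7 in CD45.2 monocytes. These groups were still apart, with smaller differences of -1.91 and -1.33 (limma adjusted p = 8.03e-07 and 0.000139).

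In upper glycolysis the isozymes went in opposite directions. Hexokinases trap glucose by phosphorylation. Hk1, the broadly expressed form, was 3.16 to 6.73 FPKM over the AΦ libraries and 9.97 to 15.1 over the monocyte libraries, with differences of -1.22, -0.91 and -1.18 and no overlap. Hk2, the inducible form, was the most abundant of the 3 in each population, with medians of 17.9 FPKM in AΦ and 21.6 in monocytes. It was called in CD45.2 cells at 32 weeks alone (-0.43, limma adjusted p = 0.011), and not after rescaling to an equal sum. Hk3, the myeloid form, was called at 4 weeks (-0.80, limma adjusted p = 0.000146), with 7.42 to 10.5 FPKM in TR-AΦ and 11.7 to 22.5 in monocytes.

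Phosphofructokinase commits the sugar to glycolysis. Pfkp, the platelet-type subunit, was the major one in every library, and its AΦ libraries (35.6 to 47.8 FPKM) lay above every monocyte library (17.3 to 32.5). The differences were 0.55, 0.87 and 0.89 (limma adjusted p = 0.000213, 2.73e-07 and 2.3e-07). The liver-type subunit Pfkl went the other way, with differences of -0.79 and -0.49 called at 4 weeks and in CD45.1 cells, and -0.30 not called in CD45.2 cells (limma adjusted p = 0.0676). After rescaling to an equal sum the 4-week call alone was left. Gpi1, which turns glucose-6-phosphate into fructose-6-phosphate, was 50.6 to 65.0 FPKM in AΦ and 53.3 to 84.4 in monocytes. Its differences of -0.39 and -0.36 at 4 weeks and in CD45.1 cells were called, neither was after rescaling to an equal sum, and the second then had the opposite sign.

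The aldolases were higher in AΦ. Aldoa was 250 to 406 FPKM (median 324) in 4-week TR-AΦ against 155 to 163 (median 157) in monocytes. At 32 weeks the TR-AΦ libraries held 382 to 418 and the BM-AΦ libraries 358 to 438, and the highest monocyte library 192. No library overlapped, and the differences were 1.04, 1.51 and 1.54 (limma adjusted p = 1.57e-08, 1.52e-11 and 1.11e-11). Aldoc, the brain-type aldolase, was far lower in level but differed more, with 8.44 to 18.5 FPKM over the AΦ libraries and 0.0612 to 3.28 over the monocyte libraries. The highest monocyte value, 3.28, was in the CD45.2 PM2.5 library numbered 1, the one with the AΦ marker sum of 1670, and the next highest was 2.14. Aldoc differences were 2.94, 2.91 and 2.68. Tpi1, triosephosphate isomerase, was called at 32 weeks (0.49 and 0.33) with overlapping groups.

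The bifunctional enzymes that make and remove fructose-2,6-bisphosphate, the activator of phosphofructokinase, also went in opposite directions. Pfkfb4 was 22.1 to 37.1 FPKM in AΦ and 6.63 to 20.0 in monocytes, with no overlap and differences of 1.07, 1.23 and 1.42 (limma adjusted p = 1.15e-07, 1.23e-08 and 8.23e-10). Pfkfb3, the form with the strongest kinase activity, was 10.3 to 29.1 in AΦ and 15.7 to 44.0 in monocytes, with differences of -0.73, -0.91 and -1.29 (limma adjusted p = 0.00227, 0.00025 and 2.5e-06). The AΦ value of 29.1 was 1 PM2.5 library at 4 weeks, numbered 2, and the next highest was 17.2. That library also had the highest monocyte (574), neutrophil (56.1) and B cell (32.9) marker sums of the AΦ libraries, whose part was not tested. The 4-week call was lost after rescaling to an equal sum.

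**Figure D3:**
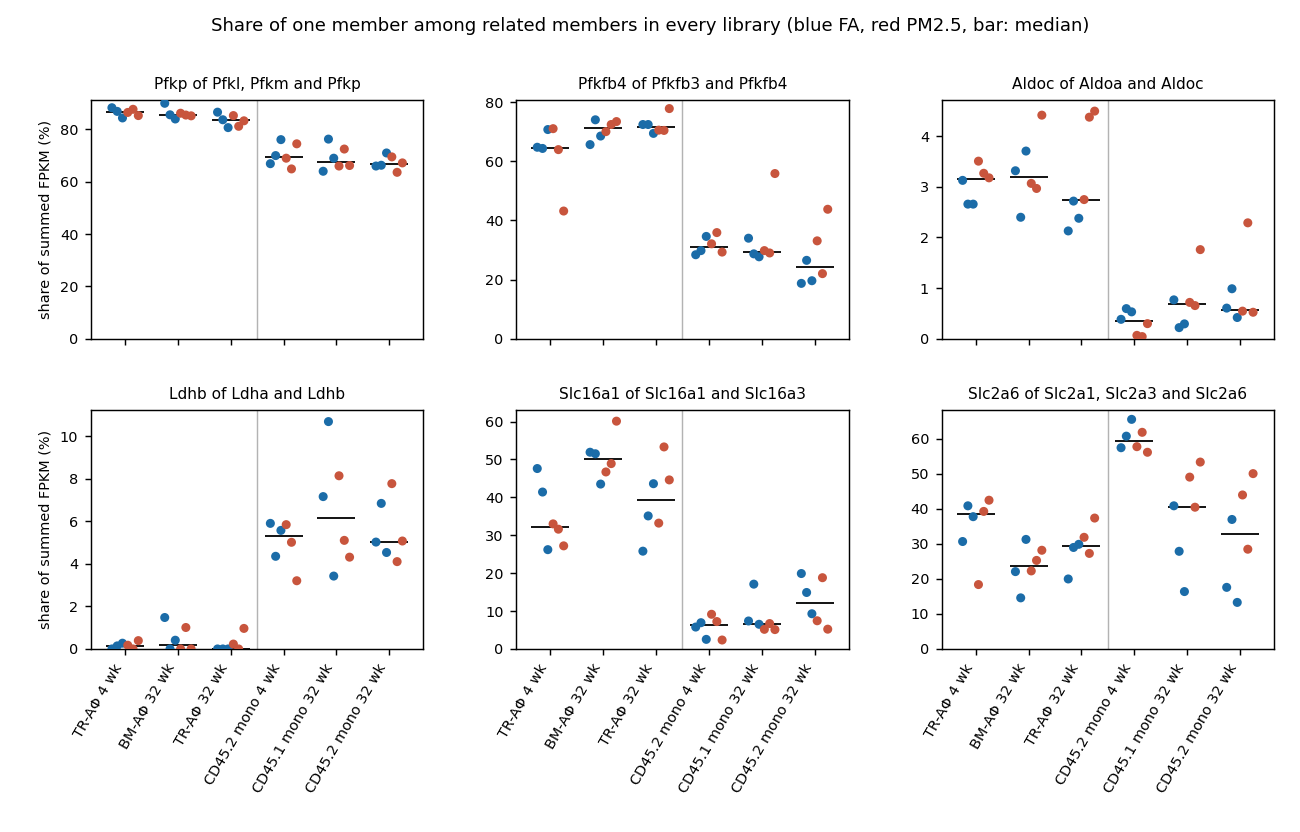
Share of 1 isozyme in the summed FPKM of its family, in percent, 1 point per library, for 6 families. Pfkp, Pfkfb4, Ldhb and Slc16a1 separate or nearly separate the AΦ from the monocyte libraries.

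As shares of their families, these values put the isozyme make-up of each cell type side by side, as a description with no test. Pfkp was 80.7% to 90.0% of summed phosphofructokinase FPKM in AΦ and 63.6% to 76.3% in monocytes. Pfkfb4 was 43.2% to 77.9% of Pfkfb3 and Pfkfb4 in AΦ and 18.7% to 55.9% in monocytes. Hk1 was 10.3% to 21.6% of the hexokinases in AΦ and 18.2% to 29.9% in monocytes, so these ranges overlapped as those of Pfkfb4 did. Aldoc remained a minor aldolase everywhere, at no more than 4.50%.

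In lower glycolysis 4 of 6 members were called lower in AΦ at 4 weeks, where 25.5% of all genes were. At 32 weeks 1 of 6 was called lower in each comparison, against 23.8% and 23.7% of all genes. Eno1, enolase, was the 1 member called in all 3 comparisons, at -1.10, -0.52 and -0.43 (limma adjusted p = 1.2e-07, 0.00214 and 0.0104). Its 4-week TR-AΦ libraries held 21.3 to 36.1 FPKM and the monocytes 54.7 to 76.6, and the 32-week calls were lost after rescaling to an equal sum. Pkm (-0.59), Pgk1 (-0.77) and Pgam1 (-0.74) were called at 4 weeks alone, and none of these 4-week calls was left after rescaling. Pgam1 was then called higher in AΦ between CD45.1 cells. Bpgm, which makes 2,3-bisphosphoglycerate, had differences of 0.28, 0.44 and 0.08 that were not called, though the second was after rescaling.

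Several of these genes have processed copies elsewhere in the genome, and reads that fit both can be lost or split. Of the 50-base stretches of their transcripts, 53.9% for Pgk1, 36.2% for Pgam1, 26.0% for Eno1, 25.8% for Pkm and 24.7% for Gapdh also occur in other annotated genes. Gapdh, one of the most abundant messages in most cells, was listed at 0.24 to 2.77 FPKM in all 36 libraries and the similarly abundant Ppia at 0 to 1.94, while Actb was 4210 to 9410. The Gapdh values therefore cannot be read as its expression, and the values of Pgk1, Pgam1, Eno1 and Pkm, with as large a share or larger, may be affected too. Ldhb and Bnip3 had smaller shares of 21.0% and 16.5%, and their values may also be affected. The Gapdh call in CD45.2 cells (0.60, limma adjusted p = 0.0436) is given only to account for the member.

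Slc16a3, at chr11:120948480-120960868, encodes MCT4, the lactate exporter of glycolytic cells. It was 9.54, 11.3, 12.4, 16.8, 18.6 and 23.7 FPKM in 4-week TR-AΦ, and 79.5, 93.6, 96.8, 134, 180 and 232 in the monocytes. The 180 and 232 belonged to the libraries numbered 2, which had the high neutrophil marker sums. Without those libraries the 4-week difference was -2.67, beside -3.02 ± 0.30 (SE, limma adjusted p = 2.8e-09) with them. At 32 weeks it was 11.6 to 22.4 in AΦ and 35.5 to 150 in monocytes, and the differences were -2.33 and -1.64.

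Slc16a1, MCT1, which carries lactate in either direction, showed no call at 4 weeks (5.22 to 8.77 FPKM against 4.68 to 8.21). At 32 weeks it was 13.5 to 19.0 in BM-AΦ against 3.95 to 13.4 in CD45.1 monocytes, with a difference of 1.15 (limma adjusted p = 2.21e-05). In CD45.2 cells it was 7.18 to 13.7 against 3.05 to 13.4, and the difference of 0.53 (limma adjusted p = 0.028) was 0.38 and not called with all libraries numbered 2 left out. Slc16a1 was 25.8% to 60.1% of the summed FPKM of both transporters in AΦ and 2.36% to 19.9% in monocytes, with no overlap.

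Lactate dehydrogenase is a tetramer of A and B subunits, of which A favours lactate formation. Ldha was higher in AΦ at 32 weeks by 0.74 and 0.61 with no overlap (limma adjusted p = 8.31e-05 and 0.000722), and at 4 weeks its difference of 0.31 was not called (limma adjusted p = 0.0764) except after rescaling to an equal sum. Ldhb was 0 to 1.34 FPKM in AΦ and 2.02 to 7.11 in monocytes, with differences of -1.99, -1.80 and -1.82. It made up 3.21% to 10.7% of the summed FPKM of both subunits in monocytes and no more than 1.48% in AΦ.

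At the entry to the mitochondrion, Pdha1, the catalytic subunit of pyruvate dehydrogenase, was lower in AΦ in all 3 comparisons (-1.21, -0.64 and -0.53), the 32-week calls being lost after rescaling. Its 4-week TR-AΦ libraries held 20.0 to 28.8 FPKM against 39.1 to 66.9 in monocytes. Pdk1, the kinase that switches this enzyme off, was higher in AΦ at 32 weeks by 0.70 and 0.95 (limma adjusted p = 0.0131 and 0.00119), with overlapping groups.

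Of the HIF genes, Hif1a was 19.3 to 43.3 FPKM in AΦ and 27.0 to 156 in monocytes. The 3 highest were 32-week FA monocytes, with 156 and 144 in the libraries numbered 2 and 121 in the CD45.1 library numbered 1. The differences were -1.02, -0.76 and -0.76, and the first alone was called (limma adjusted p = 0.0102, 0.0501 and 0.0534), and not after rescaling to an equal sum. These are message levels, and HIF-1 alpha is regulated mainly as a protein, which was not measured here. Egln1, PHD2, the main oxygen-sensing hydroxylase, was 13.9 to 24.3 FPKM over all libraries and was not called, but was called higher in AΦ in all 3 comparisons after rescaling to an equal sum. Egln3, PHD3, a hydroxylase that is itself a HIF target, was at most 0.975 FPKM in AΦ, and 2.90, 4.29, 4.82, 6.53, 7.38 and 8.20 in 4-week monocytes. At 32 weeks it was 2.03 to 3.88 in CD45.1 and 0.451 to 4.00 in CD45.2 monocytes. Its differences were -2.38, -1.79 and -1.44 (limma adjusted p = 6.17e-09, 9.23e-07 and 2.23e-05), with no overlap between cell types.

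The remaining HIF targets were unlike each other. Vegfa, a growth factor for blood vessels at chr17:46016993-46032369, was 0.950, 1.69, 2.03, 2.15, 3.23 and 5.78 FPKM in 4-week TR-AΦ and 25.8, 29.9, 31.5, 35.8, 38.7 and 53.5 in the monocytes. It was 3.32 to 10.8 in BM-AΦ against 16.2 to 61.9 in CD45.1 monocytes, and 1.66 to 4.02 in 32-week TR-AΦ against 13.2 to 57.8 in CD45.2 monocytes. The cell types never overlapped. Means were 13.6-fold, 6.22-fold and 10.8-fold higher in monocytes, and the log2 differences were -3.42, -2.44 and -2.95 (limma adjusted p = 2.91e-10, 1.46e-07 and 5.53e-09). P4ha1, a collagen prolyl hydroxylase subunit, was called at 4 weeks (-0.74) and in CD45.2 cells (-0.49), in neither after rescaling. Bnip3, a mitophagy receptor, was 4.23 to 10.6 FPKM in AΦ and 2.48 to 10.6 in monocytes, and was not called except as higher between CD45.1 cells after rescaling.

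The comparison of times asked how cells of the CD45.2 host differed between 4 and 32 weeks. In monocytes 4 of 30 tested members were called, all lower at 32 weeks, where 14.9% of all genes were called, 7.83% of all lower, and the groups did not overlap for 1 member, against 7.72% of all genes. Cell type markers moved between the same groups. The 12 listed monocyte markers fill 13 entries, of which 3 were lower at 32 weeks and none higher. Their sums were 3430 to 4610 and then 1510 to 3630 FPKM. Of 10 tested AΦ markers 5 were higher and 2 lower, with sums of 452 to 753 and then 410 to 1670. The part of these markers in the members' differences was not tested. Slc2a6 had 51.0 to 107 FPKM at 4 weeks and 7.13, 11.2, 12.5, 15.1, 21.4 and 27.7 at 32 weeks, so the highest 32-week library was below the lowest 4-week library. It fell by 2.2 on the log2 scale (SE 0.23, limma adjusted p = 8.24e-05), and was called in 23 of 23 alternative settings. As a share of the summed FPKM of the 3 transporters it was 56.2% to 65.6% in 4-week monocytes and 13.3% to 50.1% in 32-week CD45.2 monocytes. The CD45.1 monocytes of 32 weeks, not in this test, had 16.4% to 53.4%.

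The other 3 calls were weaker and their groups overlapped. Egln3 fell by 1.06 (limma adjusted p = 0.0253), P4ha1, with 19.9 to 27.9 and 9.91 to 20.5 FPKM, fell by 0.63 (limma adjusted p = 0.0297), and Slc16a3 fell by 1.14 (limma adjusted p = 0.0437). They were called in 13, 12 and 8 of 23 alternatives. For Slc16a3 the 32-week library with 131 FPKM, the FA library numbered 2, overlapped the 4-week range, while the others held 35.5 to 75.1. With the 32-week FA monocyte libraries numbered 2 left out, 7 members were called, and with the 4-week monocyte libraries numbered 2 left out, 2 were. Leaving out single libraries gave 1 to 5 calls, the 1 being without the CD45.2 FA library numbered 0 of 32 weeks, and 2 calls without FA number 0, FA number 1 or PM2.5 number 2 at 4 weeks, or CD45.2 PM2.5 number 1 or number 2 at 32 weeks.

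In TR-AΦ 2 of 29 members were called between the times, where 5.91% of all genes were, 2.56% higher and 3.35% lower at 32 weeks. Hk2 was 17.6, 20.1, 22.0, 23.0, 25.4 and 30.0 FPKM at 4 weeks and 10.7, 14.3, 15.2, 15.3, 17 and 17.5 at 32 weeks. The groups just failed to meet, the 1 such member against 3.86% of all genes, and Hk2 fell by 0.58 (limma adjusted p = 0.0303). Slc16a1 was 5.22, 6.96, 8.30, 8.39, 8.66 and 8.77 at 4 weeks and 7.18, 10.3, 11.9, 12.1, 13.3 and 13.7 at 32 weeks. It rose by 0.50 (limma adjusted p = 0.0469), with 1 library of 32 weeks inside the 4-week range. These calls were fragile, for Hk2 was past the threshold in 8 of 21 alternatives and Slc16a1 in 5 of 21, and single libraries left out gave 0 to 3 calls. Fewer calls, 0 or 1, were left without any of 9 of the 12 libraries, the other three being FA number 2, PM2.5 number 0 and PM2.5 number 2 of 4 weeks. Eno1 (0.40, limma adjusted p = 0.0537) lay just outside the threshold.

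**Figure D4:**
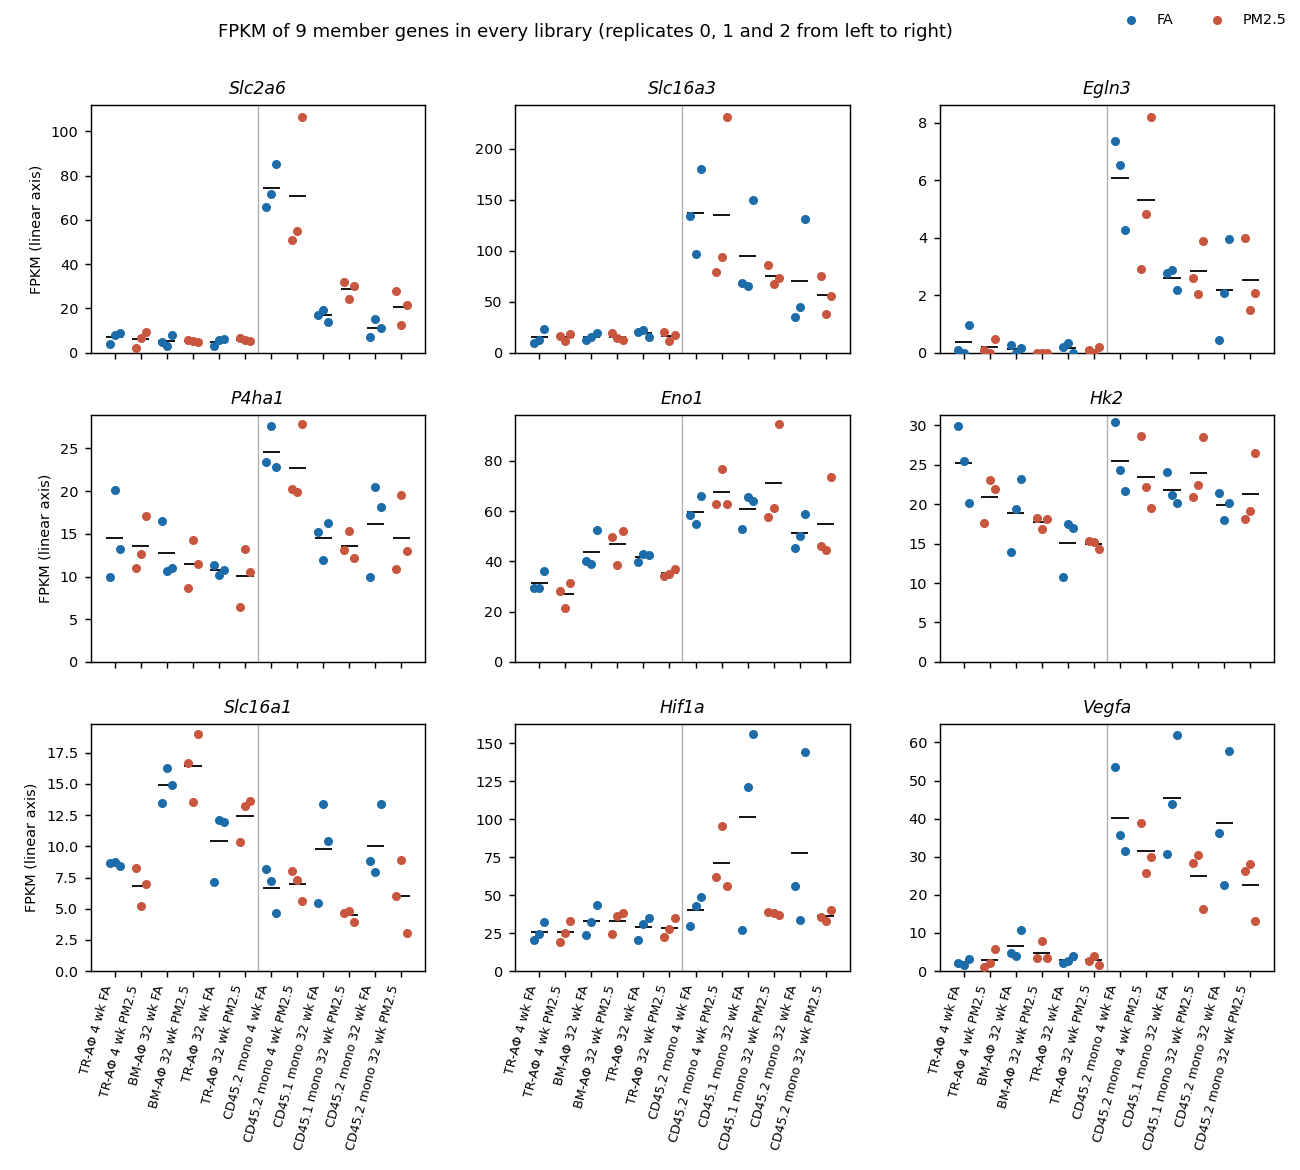
FPKM of 9 members on a linear axis, with 1 point per library, by group, for AΦ and monocytes; FA and PM2.5 are marked apart. Slc2a6 in monocytes is lower at 32 weeks than at 4 weeks, and the 32-week FA monocyte libraries numbered 2 hold the highest Hif1a and Vegfa values.

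Whether the gap between the cell types itself differed between the times was tested as an interaction in CD45.2 cells. It was called for 3 of 32 members, where 7.88% of all genes were called. For Slc2a6 the AΦ value relative to monocytes was higher at 32 than at 4 weeks by 2.04 (SE 0.37, limma adjusted p = 0.000775), and it was called in 34 of 35 alternatives, the exception being the PM2.5 groups alone. For Slc16a3 the change was 1.38 (limma adjusted p = 0.0448) and for Eno1 0.67 (limma adjusted p = 0.0284), called in 13 and 22 of 35. Neither of these was called after rescaling to an equal sum. The count ran from 1 to 7 when single libraries were left out. It was 1 without number 0 of the 4-week FA or number 1 of the 4-week PM2.5 TR-AΦ, number 2 of the 4-week FA monocytes, or CD45.2 monocytes FA number 0 or PM2.5 number 1 of 32 weeks. It was 5 without number 2 of the 4-week FA TR-AΦ, and 7 without number 2 of the 32-week FA CD45.2 monocytes.

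The comparison of origins asked whether AΦ from marrow differed from resident AΦ at 32 weeks. By limma none of 29 tested members was called, where 0.316% of all genes were, and 6 had an unadjusted p below 0.05, with 7.45% of all genes. Dendritic cell marker sums separated the same libraries, at 9.08 to 31 FPKM in BM-AΦ and 1.46 to 4.86 in TR-AΦ, with 1 of 3 tested markers called higher in BM-AΦ, and their part was not tested. Ldha was the 1 member whose groups did not overlap, against 1.37% of all genes, with 89.2, 92.8, 93.6, 95.8, 97.3 and 108 FPKM in BM-AΦ and 75, 75.6, 76.7, 77.5, 82.1 and 88.5 in TR-AΦ. Its difference of 0.28 had a limma adjusted p of 0.275. Slc16a1 was 13.5 to 19.0 in BM-AΦ and 7.18 to 13.7 in TR-AΦ (0.44, limma adjusted p = 0.304), and Slc2a1, Hk1, Pfkp and Vegfa were the others. The 95% interval of the Vegfa difference before any adjustment, 0.04 to 1.41 on the log2 scale, shows how large a difference 6 libraries a side leave possible. Between CD45.1 and CD45.2 monocytes none of 30 members was called by limma, against 0.669% of all genes, none was without overlap, against 1.18%, and Slc2a6 alone had an unadjusted p below 0.05 (0.56, limma adjusted p = 0.419), with 9.59% of all genes. The gap between cell types did not differ by origin for any of 32 members past the threshold, where 1.08% of all genes were called and 2 members had an unadjusted p below 0.05, with 10.3% of all genes.

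The comparison of exposures asked how PM2.5 differed from FA within each population. No member was called by limma in any of the 6, where 0.0079%, 0.0158% and 0% of all genes were called in TR-AΦ at 4 weeks, BM-AΦ and TR-AΦ at 32 weeks, and 0.00778%, 0% and 0% in the monocytes of 4 weeks, CD45.1 and CD45.2. Members with an unadjusted p below 0.05 numbered 1, 0, 1, 1, 3 and 4, with 2.94%, 2.05%, 3.13%, 2.12%, 4.74% and 4.25% of all genes. The FA and PM2.5 libraries did not overlap for 1, 0, 2, 2, 4 and 2 members, against 5.82%, 6.44%, 5.98%, 6.57%, 8.89% and 6.39% of all genes. The smallest limma adjusted p of a member was 0.946.

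**Figure D5:**
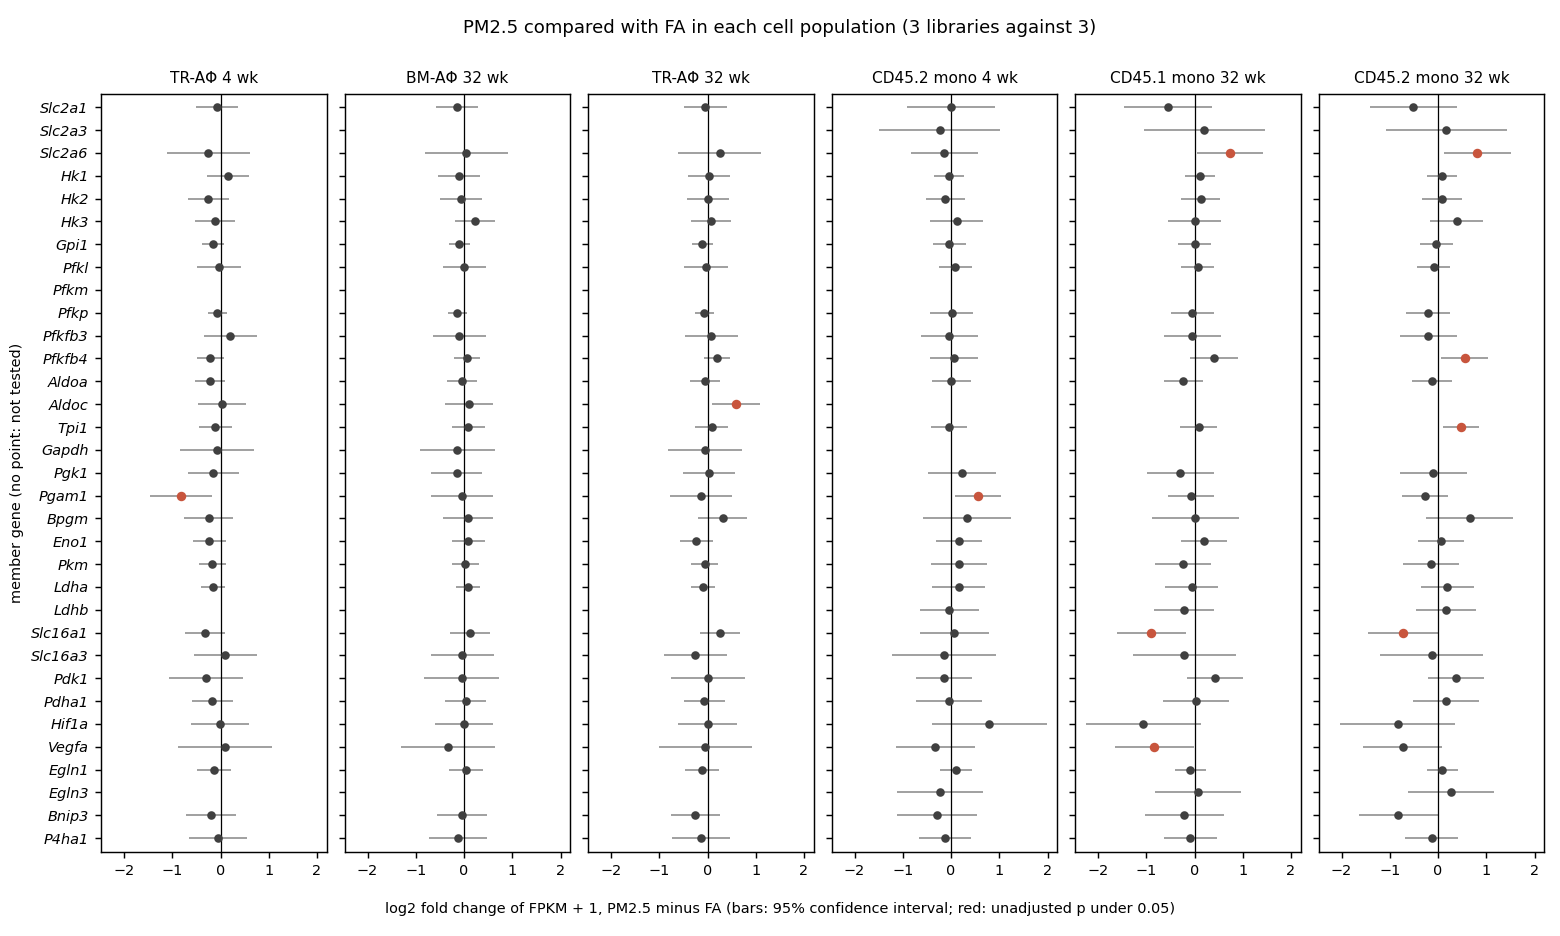
Log2 difference of PM2.5 minus FA for each tested member in the 6 populations, with 95% intervals; no point has an adjusted p below 0.05. The widest intervals are those of Slc2a3 and Hif1a in monocytes.

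In AΦ the member with the smallest p was a different one in each population. Pgam1 was 4.67, 9.33 and 8.73 FPKM in the FA and 4.27, 1.77 and 6.02 in the PM2.5 libraries of 4-week TR-AΦ. These overlapped, and the difference was -0.83 with an interval of -1.47 to -0.18. Aldoc was 9.10, 10.7 and 10.1 in FA and 11.1, 17.8 and 18.5 in PM2.5 TR-AΦ at 32 weeks. Every PM2.5 library was above every FA library, and the difference was 0.59 (limma adjusted p = 1), one of 2 members without overlap there. In BM-AΦ the smallest p belonged to Pfkp, with 44.0, 47.2 and 47.8 in FA and 39.7, 44.8 and 41.7 in PM2.5 (-0.14, limma adjusted p = 1).

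In 4-week monocytes Pgam1 was 6.14, 7.38 and 9.52 FPKM in FA and 11.6, 13.2 and 10.1 in PM2.5, a difference of 0.55 opposite in sign to that in TR-AΦ. Hif1a was 29.4, 42.5 and 48.8 in FA and 61.9, 95.5 and 55.9 in PM2.5. Both were without overlap, as were 6.57% of all genes, and neither passed the threshold (limma adjusted p = 1 for each). The PM2.5 libraries numbered 0 and 1, with the highest values of both genes, were those with red-cell marker sums of 157 and 129, whose part was not tested. At 32 weeks the Hif1a difference had the opposite sign, with overlapping groups. It was 27.0, 121 and 156 FPKM in FA and 38.8, 38.0 and 37.0 in PM2.5 CD45.1 monocytes (-1.063). In CD45.2 monocytes it was 55.8, 33.9 and 144 against 35.4, 32.7 and 40.3 (-0.835).

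In 32-week monocytes Slc2a6 and Slc16a1 were below an unadjusted p of 0.05 in both CD45 types. Slc2a6 was 17.2, 19.4 and 14 FPKM in FA and 31.8, 24.3 and 29.9 in PM2.5 in CD45.1 cells, and 7.13, 15.1 and 11.2 against 27.7, 12.5 and 21.4 in CD45.2 cells. The CD45.1 groups were apart and the CD45.2 groups overlapped, with differences of 0.73 and 0.81 (limma adjusted p = 0.946 and 1). Slc16a1 was 5.43, 13.4 and 10.5 in FA against 4.69, 4.84 and 3.95 in PM2.5 in CD45.1 cells, and 8.84, 7.93 and 13.4 against 6.04, 8.88 and 3.05 in CD45.2 cells, with differences of -0.89 and -0.72. The monocytes labelled 1 and 2 may come from the same mice, so the second does not stand as an independent repeat of the first.

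The 32-week FA monocyte libraries numbered 2 weighed on several of these values. They held 69.5 and 70.7 FPKM of Slc2a1, 150 and 131 of Slc16a3, and 61.9 and 57.8 of Vegfa in CD45.1 and CD45.2 cells, above every other 32-week monocyte library in each. Vegfa was 30.9, 43.8 and 61.9 in FA and 28.3, 30.5 and 16.2 in PM2.5 CD45.1 monocytes, with a difference of -0.83. That became -0.59 with the 32-week FA libraries numbered 2 left out. Slc16a1 in CD45.2 monocytes became -0.52 and Pfkfb4 0.33, from -0.72 and 0.55, while Tpi1 became 0.61 from 0.48 and Slc2a6 0.84 from 0.81. Pfkfb4 was 10.1, 12 and 6.63 in FA and 15.0, 11.4 and 16.4 in PM2.5, and Tpi1 was 18.7, 15.2 and 22.6 against 24.3, 27.9 and 26.7. No exposure difference was called with or without these libraries. Nor did the exposure difference in AΦ differ by time or by origin for any of 29 members past the limma threshold, against 0.0079% and 0.0158% of all genes, with 1 and 0 members at an unadjusted p below 0.05.

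The rest of the pathway was read from lists of related genes. The alternative settings, rescaling to an equal sum included, were read for the members alone. The calls and counts in these lists were therefore not checked against that scaling. Beside their counts stand the shares of all genes called higher in AΦ, 22.6%, 27.1% and 23.6% at 4 weeks, between CD45.1 and between CD45.2 cells, and called lower, 25.5%, 23.8% and 23.7%. Of 11 tested other glycolysis isozymes, 5, 6 and 5 were higher and 2, 2 and 1 lower in AΦ in the comparisons at 4 weeks, of CD45.1 and of CD45.2 cells. Gpd1, which diverts a triose to glycerol-3-phosphate, was higher by 2.34, 3.52 and 2.60. Tigar, which lowers fructose-2,6-bisphosphate, was higher by 1.57, 2.10 and 1.99, and the transporter Slc2a8 by 1.17, 1.24 and 0.98. Eno3, the muscle enolase, was lower by a difference of -3.92, -1.96 and -1.71, and in monocytes it fell by 2.58 between the times (limma adjusted p = 0.0014).

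Of 11 genes of pyruvate entry to mitochondria, 5, 8 and 7 were higher in AΦ and 1 was lower in each comparison, against 22.6%, 27.1% and 23.6% of all genes higher. Pdk4, a starvation-induced kinase of pyruvate dehydrogenase, was higher by 3.28, 4.26 and 3.77, and in TR-AΦ it rose by 1.92 between the times (limma adjusted p = 0.0055). Mpc2, a subunit of the mitochondrial pyruvate carrier, was higher by 0.81, 1.31 and 1.67, and the phosphatase Pdp2 was lower (-0.98, -0.68 and -0.60). Of 9 pentose phosphate genes, 1, 3 and 3 were higher and 3, 0 and 0 lower. Rpia, ribose-5-phosphate isomerase, was higher by 0.86, 1.03 and 1.23, and G6pdx, the entry enzyme, differed by -0.84 at 4 weeks.

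Of 8 regulators of HIF, none was higher and 7, 5 and 5 were lower in AΦ, against 25.5%, 23.8% and 23.7% of all genes lower. They included Cited2, an inhibitor that competes for the HIF coactivators (-0.89, -1.34 and -1.62), the coactivators Crebbp (-1.03, -1.03 and -0.95) and Ep300 (-0.81, -0.78 and -0.84), and the partner subunit Arnt. Both activators and inhibitors of HIF are thus among the lower genes. Of 29 other hypoxia targets, 11, 13 and 13 were higher and 12, 10 and 11 lower. Angptl4, an inhibitor of lipoprotein lipase, was higher by 5.49, 4.96 and 4.33. Ddit4, an inhibitor of mTORC1, was lower (-2.41, -3.31 and -3.11), as was the chemokine receptor Cxcr4 (-2.35, -2.03 and -2.0). Genes listed as hypoxia targets thus lay on both sides, as the members Vegfa and Egln3, both lower in AΦ, and Ldha and Pdk1, both higher in AΦ at 32 weeks, did.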

How the data were processed

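RNA of sorted cells was made into stranded libraries from low input. According to the study's methods, reads were trimmed, aligned with STAR to mm10 with GENCODE genes, and summarised with Cufflinks. The authors deposited FPKM per gene and library, and no counts were used here. Duplicate libraries were not found. FPKM + 1 was taken to log2, genes whose mean reached 1 FPKM were kept in the AΦ model (12665), the monocyte model (12856) and that of both (13307), and limma 3.58.1 (R 4.3.3) with a trended prior was fitted over all groups of the model. Benjamini-Hochberg adjustment ran over all genes of each of 17 comparisons. FA and PM2.5 groups were averaged outside the exposure comparisons. The p-values measure the spread between libraries, which the main tests treat as independent, since the labels do not say which came from 1 mouse. The members and lists were chosen with earlier results of these data known. Values in every library are given for members past the threshold with a log2 change of at least 1, up to 10 per comparison, or in exposure comparisons for up to 5 with the smallest p; other lists name up to 3 genes per direction. Some further values, as of Hk2 and Slc16a1 between times, of Ldha between origins and of Hif1a, were named after they were seen. Tables and figures used Python 3.11.15, pandas 2.3.3 and matplotlib 3.10.9. The scripts were tested on simulated data. Alternatives were the pseudocount, the filter, quantile or equal-sum scaling, only the groups compared, the replicate number as a block, FA or PM2.5 groups alone, and each library left out. For cell type and origin comparisons and their interaction the block was the number within each exposure and time. For the rest it was the number over all groups. Leaving out the libraries numbered 2 was added after the data were seen.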

Additional observations from a re-analysis of the deposited data

Results flagged for a closer look

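The gap between AΦ and monocytes of CD45.2 type differed between 4 and 32 weeks for 3 of 32 members (9.38%), by the limma interaction test. Of all genes 7.88% were called, a share close to that of the members. The change in the gap was 2.04 for Slc2a6 (adjusted p = 0.000775), 1.38 for Slc16a3 (adjusted p = 0.0448) and 0.67 for Eno1 (adjusted p = 0.0284), all toward a smaller deficit in AΦ at 32 weeks. For Slc2a6 the AΦ ranges at both times overlapped (2.23 to 9.46 and 2.93 to 6.67 FPKM) while the monocyte ranges did not (51.0 to 107 and 7.13 to 27.7 FPKM). Neutrophil marker sums of 329 and 1010 in the 4-week monocyte libraries numbered 2 stand beside these values. With those libraries left out, Slc2a6 alone was called. In the PM2.5 groups alone none of the 3 was.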

How the results depend on the processing

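The depth of the libraries is unknown, so it cannot be said how small a difference each level could show. Calls between the cell types numbered 23, 21 and 22 at 4 weeks, in CD45.1 and in CD45.2 cells, and 23 to 23, 21 to 23 and 19 to 22 with single libraries left out. In all 22 alternatives 16, 13 and 13 of these members stayed called. One value reversed, Gpi1 in CD45.1 cells, at 0.0294 after rescaling to an equal FPKM sum. The counts over time depended on the setting, and the cause was not tested. In TR-AΦ (2 calls) there were 1 without the filter on low values, 0 with an equal sum, 0 from only the groups compared, 0 in FA groups only, 0 in PM2.5 groups only and 0 without all libraries numbered 2, and 0 to 3 with single libraries left out. In monocytes (4 calls) there were 2 with an equal sum, 1 from only the groups compared, 1 in FA groups only, 1 in PM2.5 groups only, 2 and 7 without the 4-week or the 32-week FA monocyte libraries numbered 2, and 2 without all numbered 2, with 1 to 5 for single libraries. The interaction with time (3 calls) gave 1 with an equal sum, 1 in FA and 1 in PM2.5 groups only (there Pgam1, with Slc2a6 not called), 1, 7 and 5 without the same sets, and 1 to 7 for single libraries. Exposure and origin comparisons had 0 calls in every alternative, and their interactions as well.

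The replicate numbers were not used to pair the samples in the main tests, since the labels do not say what they share. The paper states that 3 mice of each exposure and time were sequenced, so libraries of different cells may share mice. The main tests treat all libraries as independent. Most same-numbered pairs correlated at under 0.1, which does not decide whether they share mice. Deviations of same-numbered libraries correlated at -0.041 to 0.155 (median 0.037) over 42 pairs, against -0.152 to 0.124 over 84 pairs of different numbers, and in 55 of 84 checks a library correlated best with its own number, where an even spread over the 3 numbers would give 28, a hint of pairing from the data. With the replicate number as a block over all groups, which pairs no mice, calls were 5 over time in TR-AΦ, 6 in monocytes and 6 in the interaction. Exposure then had 0. With the number as a block within each exposure and time, calls were 24, 23 and 25 between the cell types and 0 for origin.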

Other observations

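The library numbers carried a pattern in some members, noticed after the values were seen and not tested. In AΦ, the library numbered 2 had the highest and that numbered 0 the lowest Hif1a of its group in 6 of 6 groups, for example 20.5 and 32.1 FPKM in 4-week FA and 23.5 and 43.3 in 32-week FA BM-AΦ. Pdha1 was highest in the library numbered 2 in 6 of 6 AΦ groups and in 6 of 6 monocyte groups, and Pdk1 in 6 of 6 monocyte groups. Pgk1, Pfkl and Pfkp were lowest in the library numbered 0 in 6 of 6 AΦ groups. The summed AΦ markers followed the same order in 6 of 6 AΦ groups, from 7350 to 13900 in 32-week FA BM-AΦ. The labels do not say what the numbers stand for.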
